A study of Mus musculus with 8 samples.

Results

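The genes described here are 9 members of the tripartite motif (TRIM) family listed on mouse chromosome 7: Trim21, Trim68, Trim34a, Trim12a, Trim12c, Trim30b, Trim30c, Trim30a and Trim30d, in their order along the chromosome. They were selected on the array values of this study, because their differences between its groups were already known, so those differences are a description and carry no test. A member was measured where the array's annotation gives a probe set (a group of probes summarised into 1 value) that gene's symbol and no other. That left 7 of the 9 genes, with 1 probe set each, among 21640 probe sets with 1 symbol for 19937 genes. Trim30b has only a probe set that also lists Gm38525, and the annotation names no probe set for Trim30c.

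The cells were regulatory T cells (Tregs), CD4+ T cells that restrain immune responses, sorted as CD4+ TCRβ+ CD25+ cells from spleen and peripheral lymph nodes of bone marrow chimeras. All recipients were CD3ε-/- mice, which make no T cells of their own, and were given bone marrow after a lethal dose of radiation. The IIKO-CD3KO chimeras (IIKO chimeras) received IIKO marrow, and their Tregs are labelled as having no contact between their antigen receptor and MHC class II in the periphery; the WT-CD3KO chimeras (WT chimeras) received wild-type marrow, and their Tregs kept that contact. There were 4 arrays of IIKO chimeras and 4 of WT chimeras, all labelled C57BL/6 and 6 to 8 weeks of age, with cells taken 28 days after reconstitution and 100 ng of total RNA per array. The labels name neither the class II gene disrupted in IIKO donors nor how that allele was made, and they do not say how many mice make up a sample, so errors measure the spread between these samples. Donor marrow is the variable between the groups: it carries the IIKO allele and everything else that differs between the donors.

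TRIM proteins are ubiquitin ligases with a RING domain that transfers ubiquitin, B-box domains and a coiled coil through which they pair, and in most of these members a C-terminal PRYSPRY domain that binds the target. Several restrict viruses or tune the signalling that follows sensing of microbes, and interferon raises the transcripts of many. In rodents the genes related to primate TRIM5, a factor that captures retroviral capsids, have multiplied into the Trim12 and Trim30 groups, so near-identical copies lie side by side.

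The deposited values are log2 levels after robust multi-array averaging (RMA), so a difference of 1 means a 2-fold ratio. Array medians over all probe sets lay between 6.96 and 7.03. Over the 1-symbol probe sets they were 7.058 to 7.107 in IIKO and 7.116 to 7.146 in WT, every IIKO array below every WT array. Correlations between arrays over the 1-symbol probe sets were at least 0.9936 within IIKO, 0.9931 within WT and 0.9897 between the groups. The mean of 10 Treg markers was 11.462 to 11.541 in IIKO and 11.446 to 11.519 in WT, and Foxp3, the transcription factor that defines Tregs, averaged 10.68 ± 0.12 in IIKO and 10.63 ± 0.04 in WT (SD, n = 4 each). The 7 measured B and plasma cell markers averaged 6.041 to 6.166 against 5.974 to 6.241, the 13 myeloid and dendritic cell markers 5.911 to 6.263 against 6.013 to 6.288, and the 7 NK and CD8 T cell markers 6.447 to 6.614 against 6.453 to 6.794 (IIKO against WT). Limma called 0 markers of these 4 lists at an adjusted p under 0.05, and at an unadjusted 0.05, which 16.9% of all probe sets passed, it called 3 of 10 Treg, 0 of 7 B and plasma cell, 2 of 13 myeloid and dendritic cell and 3 of 7 NK and CD8 T cell markers. The Treg markers of smallest p were Il2ra at 0.17, Ctla4 at 0.12 and Cd4 at 0.13 (IIKO minus WT). Il2ra and Ctla4 did not overlap between the groups, by gaps of only 0.001 and 0.008, nor did Ikzf2 (gap 0.009). These were 3 of 10 Treg markers without overlap, against 10.3% of all probe sets. The same held for 3 of 7 NK and CD8 T cell markers, Klrk1 and Cd8a among them. It held for 1 of 13 myeloid and dendritic cell markers, Siglech, and for 0 of 7 B and plasma cell markers. Among NK and CD8 T cell markers Klrk1 stood at 0.45, Gzma at -0.78 and Cd8a at -0.11, among myeloid and dendritic cell markers Siglech at -0.19, S100a8 at -0.33 and Mpo at -0.11, and among B and plasma cell markers Cd79b at -0.19, Sdc1 at -0.07 and Jchain at 0.11. Over all 1-symbol probe sets limma called 59 at an adjusted p under 0.05 (0.273%), 35 higher (0.162%) and 24 lower (0.111%) in IIKO. In bulk RNA of sorted cells, fewer cells that use a gene and less RNA per cell cannot be told apart.

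The start regions of Trim12a, Trim12c, Trim30a and Trim30d are shown because each pair of close copies was split by the values below. The stretches shown run from 100 bases before the annotated RNA start to 30 bases into the transcript, 5′ to 3′ on the gene's own strand, as RefSeq gives them on GRCm38.p6. Capitals mark a core of the interferon-stimulated response element, GAAANNGAAA, read on either strand.
Trim12a, chr7:104315466-104315595, minus strand: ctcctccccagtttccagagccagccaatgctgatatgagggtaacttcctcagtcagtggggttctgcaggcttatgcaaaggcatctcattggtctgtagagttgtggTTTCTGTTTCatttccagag
Trim12c, chr7:104353320-104353449, minus strand: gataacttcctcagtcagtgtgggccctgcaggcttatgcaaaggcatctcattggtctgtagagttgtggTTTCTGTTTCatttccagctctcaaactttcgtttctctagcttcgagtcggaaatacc
Trim30a, chr7:104465164-104465293, minus strand: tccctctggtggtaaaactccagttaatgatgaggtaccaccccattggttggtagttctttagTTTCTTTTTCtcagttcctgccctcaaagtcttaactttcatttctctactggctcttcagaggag
Trim30d, chr7:104507820-104507949, minus strand: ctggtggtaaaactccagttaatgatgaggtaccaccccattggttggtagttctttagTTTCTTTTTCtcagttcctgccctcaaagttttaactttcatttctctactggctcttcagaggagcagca
Over the 300 bases available for each gene, the Trim12a and Trim12c windows aligned over 260 bases with 247 identical, and the Trim30a and Trim30d windows over 294 bases with 276 identical. The core lay at bases 11 to 20 of the transcript for Trim12a, and at 29 to 20 bases before the start for Trim12c, in the same letters. For Trim30a it lay 36 to 27 bases before the start and for Trim30d 41 to 32 bases before it, again in the same letters. RefSeq also gives Trim30a a second start, whose window was 238 of 260 aligned bases identical to the first and held the core too.

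Outside those pairs, Trim34a and Trim21 carried the core within the transcript's first bases.
Trim34a, chr7:104244357-104244486, plus strand: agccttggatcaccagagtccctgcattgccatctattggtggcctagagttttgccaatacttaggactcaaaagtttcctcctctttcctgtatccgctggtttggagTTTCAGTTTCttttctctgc
Trim21, chr7:102565453-102565582, minus strand: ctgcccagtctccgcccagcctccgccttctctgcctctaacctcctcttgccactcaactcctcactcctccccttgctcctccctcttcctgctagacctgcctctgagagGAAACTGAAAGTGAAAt
The Trim21 stretch holds 2 overlapping matches, and no match was found in the windows of Trim68, Trim30b or Trim30c. In all, 7 of 10 windows of the listed TRIM genes held the core (70.0%), against 1131 of 32851 RefSeq promoter windows of the same length (3.44%) and 18 of 44 windows of a list of interferon response genes (40.91%). The 10 windows include both starts of Trim30a, and the windows of close copies share most of their bases, so they are not separate observations. A match is a string of letters and was not examined as a binding site. It stood in the windows of Trim12c, which was higher in IIKO, of Trim12a and Trim30d, which were lower, and of Trim30a, which was level.

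Of the 7 measured members, 4 were higher in all IIKO arrays than in any WT array (Trim12c, Trim34a, Trim68 and Trim21), 2 were lower (Trim30d and Trim12a), and 1 overlapped (Trim30a). Among all 1-symbol probe sets, 10.3% did not overlap between the groups, 2.89% being higher and 7.44% lower in IIKO; since the members were listed for this contrast, nothing is read from their count. Differences of at least 2-fold were seen in 3 members, against 0.157% of all probe sets. By the size of the difference among the 21640 probe sets, Trim30d ranked 3, Trim12a 5, Trim12c 12, Trim34a 60, Trim68 165, Trim21 389 and Trim30a 18896. The median difference (IIKO minus WT) of the members was 0.41 and that of all probe sets -0.04.

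**Figure D1:**
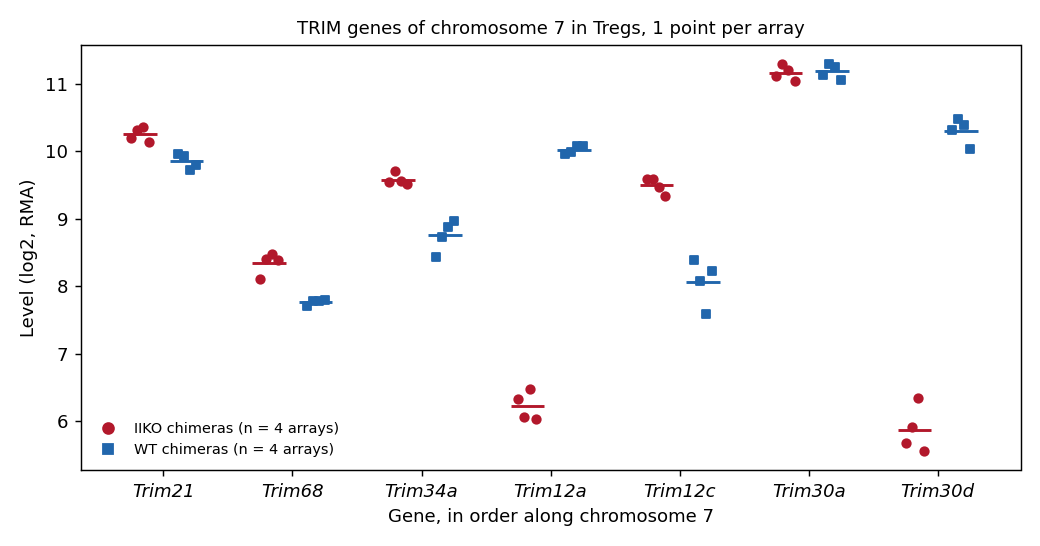
Level of each measured member (log2, RMA) on every array, in gene order along chromosome 7, with IIKO chimeras as red circles left of WT chimeras as blue squares and bars at the group means (n = 4 each). Trim12a and Trim30d sit near 6 in IIKO and near 10 in WT, Trim30a is level near 11, and the other 4 genes are higher in IIKO.

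The Trim12 and Trim34 genes come first. Trim12a, a mouse relative of primate TRIM5, read 6.33, 6.06, 6.48 and 6.03 in the 4 IIKO arrays, against 9.96, 9.98, 10.07 and 10.07 in the 4 WT arrays. Every IIKO array was far below every WT array, with 3.48 between the highest IIKO and the lowest WT value. The group means were 6.22 ± 0.22 in IIKO and 10.02 ± 0.06 in WT (SD, n = 4 each), a difference of -3.80 (SE 0.10, 95% confidence interval -4.02 to -3.58), or 13.9-fold lower in IIKO. In IIKO its mean lay at percentile 30.1 of all probe set levels and in WT at percentile 91.1. The background of the scans was not examined, so the size of this difference, unlike its direction, depends on how dim an absent transcript reads.

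Trim12c, the neighbouring copy, went the opposite way. It is a ubiquitin ligase that in mouse cells acts with TRAF6 to raise interferon and NF-κB signalling. Its levels were 9.59, 9.59, 9.47 and 9.34 in IIKO, against 8.38, 8.07, 7.59 and 8.23 in WT. All IIKO arrays were higher, and the WT arrays spread more widely (9.50 ± 0.12 in IIKO and 8.07 ± 0.35 in WT, SD, n = 4 each). The difference was 1.43 (SE 0.15, interval 1.09 to 1.76), or 2.69-fold.

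Trim34a, the mouse counterpart of human TRIM34, which in human cells works with TRIM5 against some retroviral capsids, read 9.54, 9.70, 9.56 and 9.51 in IIKO, against 8.43, 8.73, 8.88 and 8.96 in WT. The groups did not overlap, and a gap of 0.55 separated them. Means were 9.58 ± 0.08 in IIKO and 8.75 ± 0.23 in WT (SD, n = 4 each), a difference of 0.83 (SE 0.11, interval 0.59 to 1.07), or 1.78-fold.

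A probe set reads only the stretch of RNA that its probes match, and the annotation assigns further probe sets to several of these copies at once. The probe set listed for Trim5, Trim12c and Trim12a read 9.12, 9.09, 8.76 and 8.51 in IIKO, against 9.74, 9.76, 9.74 and 9.80 in WT. Its IIKO arrays were all lower, by -0.89 on average (SE 0.13), a smaller step than that of the Trim12a probe set. The probe set listed for Trim5 and Trim12c averaged 9.86 ± 0.07 in IIKO and 9.74 ± 0.18 in WT (SD, n = 4 each), a difference of 0.12 (SE 0.09), and its groups overlapped. The shared probe sets thus did not repeat the 1.43 of the Trim12c probe set. Neither is listed for Trim12c alone, and the one for 3 genes includes Trim12a, whose own probe set was lower in IIKO. They are therefore not repeat readings of Trim12c. How much each 1-symbol probe set also reads its near-identical copy was not tested.

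**Figure D2:**
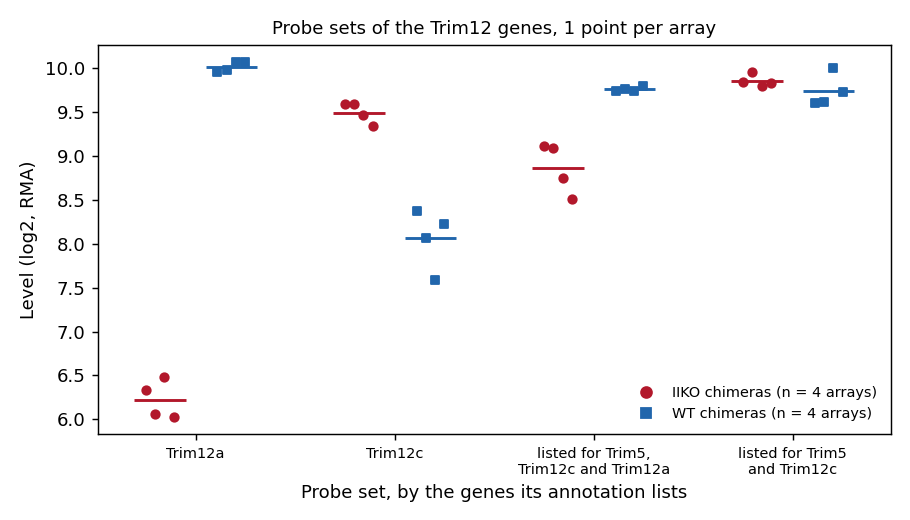
Level (log2, RMA) of the 4 probe sets annotated to Trim12 genes on every array, IIKO chimeras as red circles left of WT chimeras as blue squares, with bars at the group means (n = 4 each). The Trim12a probe set and the one listed for 3 genes are lower in IIKO, the Trim12c probe set is higher, and the one listed for Trim5 and Trim12c overlaps.

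The Trim30 genes split as well. Trim30d read 5.67, 5.91, 6.35 and 5.56 in IIKO, against 10.31, 10.48, 10.39 and 10.03 in WT. No IIKO array came within 3.68 of a WT array. Means were 5.87 ± 0.35 in IIKO and 10.30 ± 0.19 in WT (SD, n = 4 each), a difference of -4.43 (SE 0.16, interval -4.80 to -4.07), or 21.6-fold lower in IIKO. Its IIKO mean lay at percentile 22.8 of all probe set levels and its WT mean at percentile 93.0, so the same limit on the size holds as for Trim12a.

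Trim30a, a ligase that in mouse macrophages restrains NF-κB signalling by sending TAB2 and TAB3 for degradation, was level between the groups. It read 11.11, 11.29, 11.20 and 11.04 in IIKO, against 11.13, 11.29, 11.24 and 11.06 in WT. The arrays interleaved, with means of 11.16 ± 0.11 in IIKO and 11.18 ± 0.10 in WT (SD, n = 4 each). The difference was -0.02 (SE 0.07), with an interval of -0.19 to 0.14, and its sign turned with the arrays centred on their medians (0.03). The probe set that lists Trim30b with Gm38525 was dim on all arrays, at 5.45 ± 0.07 in IIKO and 5.74 ± 0.19 in WT (SD, n = 4 each). The difference was -0.29 (SE 0.10), and the groups overlapped, with up to 5.54 in IIKO and down to 5.47 in WT. Of all 1-symbol probe sets dimmer than the median level, 78.5% had negative differences.

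Trim21 and Trim68 lie apart from the others. Distances are between the lower coordinates of the genes on GRCm38.p6, which for minus strand genes are not the RNA starts. They were 119.7 kb between Trim21 and Trim68 and 1566.9 kb between Trim68 and Trim34a. From Trim34a to Trim30d they were 38.9 to 70.3 kb between consecutive measured members. Trim21, also known as the autoantigen Ro52, is a cytosolic antibody receptor that marks antibody-coated particles for destruction. It read 10.20, 10.31, 10.36 and 10.14 in IIKO, against 9.96, 9.92, 9.72 and 9.79 in WT. All IIKO arrays were higher, by a gap of 0.18 (means 10.25 ± 0.10 in IIKO and 9.85 ± 0.11 in WT, SD, n = 4 each). The difference was 0.41 (SE 0.07, interval 0.24 to 0.57), or 1.33-fold.

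Trim68 encodes a ubiquitin ligase that in human cells acts on the androgen receptor and on interferon induction. It read 8.11, 8.40, 8.47 and 8.38 in IIKO, against 7.71, 7.78, 7.78 and 7.79 in WT. The WT arrays were tightly grouped and all below the IIKO arrays. Means were 8.34 ± 0.16 in IIKO and 7.77 ± 0.04 in WT (SD, n = 4 each), a difference of 0.57 (SE 0.08, interval 0.40 to 0.75), or 1.49-fold.

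Among the IIKO arrays, replicate 4 was the lowest for 6 of the members measured and replicate 1 for Trim68. Among the WT arrays the lowest differed more between members: it was replicate 4 for Trim30d and Trim30a, replicate 1 for Trim12a, Trim34a and Trim68, and replicate 3 for Trim12c and Trim21. Replicate 3 was the highest of the IIKO arrays for Trim30d, Trim12a, Trim21 and Trim68. It was also the highest IIKO array for the class II genes H2-Aa, H2-Ab1 and H2-Eb1, at 8.06 for H2-Aa, and for the myeloid and dendritic cell marker mean, at 6.263; the part of these in the members' values was not tested. Across the groups H2-Aa ran from 6.82 to 8.06 in IIKO against 7.99 to 8.30 in WT, H2-Ab1 from 7.08 to 8.27 against 7.87 to 8.39, and H2-Eb1 from 7.52 to 7.75 against 8.13 to 8.48. Only H2-Eb1 of these 3 passed the test (limma adjusted p = 0.009032). Without IIKO replicate 3 the difference of Trim30d was -4.59 and that of Trim12a -3.88. Since replicate 3 was the highest IIKO array for both genes, leaving it out had to enlarge these differences.

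The genes whose pattern over the 8 arrays was most like that of the members are given by Pearson's r, which the step between the groups dominates. Trim30d and Trim12a had r = 0.9955 with each other, and Trim30d and Trim12c r = -0.9536. Outside the members, r with Trim30d was highest for a probe set of Rps13 (0.985), Cops9 (0.981), Olfr642 (0.980), Gpr153 (0.977) and Cda (0.977). Of these, Rps13, a ribosomal protein gene on chromosome 7, had a step of like size, 6.87 ± 0.36 in IIKO and 11.31 ± 0.07 in WT (SD, n = 4 each), a difference of -4.45 (limma adjusted p = 4.165e-07). Its other 2 probe sets stayed bright, at 11.40 in IIKO and 11.72 in WT for one (limma adjusted p = 0.1674) and 12.22 in IIKO and 12.25 in WT for the other (limma adjusted p = 0.8077). Why probe sets of 1 symbol differ in this way was not tested. The other 4 genes differed by -0.07 to -0.17 and did not pass the test.

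With Trim12c, r was highest for 1 of the 77 probe sets of Hmcn1 (0.987), then Dnah8 (0.975), Riok3 (0.969), Kdm6b (0.965) and Zfp131 (0.965). Dnah8, an axonemal dynein gene on chromosome 17, rose by 1.42 (limma adjusted p = 0.0001616), and Zfp131 on chromosome 13 by 0.42 (limma adjusted p = 0.01788). Hmcn1, Riok3 and Kdm6b were 0.15 to 0.30 higher in IIKO and did not pass the test.

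Of 6 other TRIM genes of chromosome 7, 5 had a probe set, and limma called 0 of them at an adjusted p under 0.05 and 0 at an unadjusted 0.05. Trim66, a nuclear relative without the PRYSPRY domain, ran from 6.47 to 6.54 in IIKO and from 6.54 to 6.77 in WT, a difference of -0.13 ± 0.06 (SE; limma adjusted p = 0.31). Trim3, a ligase of neurons, differed by -0.11 ± 0.07 (SE; limma adjusted p = 0.4266) and the pseudogene Trim30e-ps1 by -0.07 ± 0.08 (SE; limma adjusted p = 0.672). Trim72, a muscle membrane repair gene, differed by 0.02 ± 0.05 (SE; limma adjusted p = 0.8677), and Trim6, a close relative of the TRIM5 group, by -0.01 ± 0.05 (SE; limma adjusted p = 0.9476). The signs of Trim30e-ps1, Trim72 and Trim6 turned under other scalings or with an array left out. Trim34b was not analysed here.

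On the other chromosomes 50 of 57 listed TRIM genes were measured, and 1 passed the test, Trim26, which encodes a ligase that acts on IRF3, a driver of interferon genes. Trim26, on chromosome 17, read 8.88, 8.75, 8.65 and 8.64 in IIKO, against 8.06, 8.01, 8.09 and 8.07 in WT, and its groups did not overlap. It was higher by 0.67 (SE 0.06, limma adjusted p = 0.002382), with means of 8.73 ± 0.11 in IIKO and 8.06 ± 0.03 in WT (SD, n = 4 each). At an unadjusted limma p of 0.05, 8 of the 50 passed (16.0%, 4 higher and 4 lower), against 16.9% of all probe sets. Positive and negative differences were even, at 25 each, and the median was 0.002, while 62.1% of differences over all probe sets were negative. Next by p came Trim40, on chromosome 17, at -0.22 ± 0.07 (SE, limma adjusted p = 0.185). Mid2, an X-linked ligase of microtubules, followed at 0.76 ± 0.23 (SE, limma adjusted p = 0.1872), and its groups overlapped. Of the 50 genes 6 lie on chromosome 17, as do H2-Aa, H2-Ab1 and H2-Eb1. Among those 6 TRIM genes 2 passed an unadjusted limma p of 0.05. The part of their position was not tested.

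**Figure D3:**
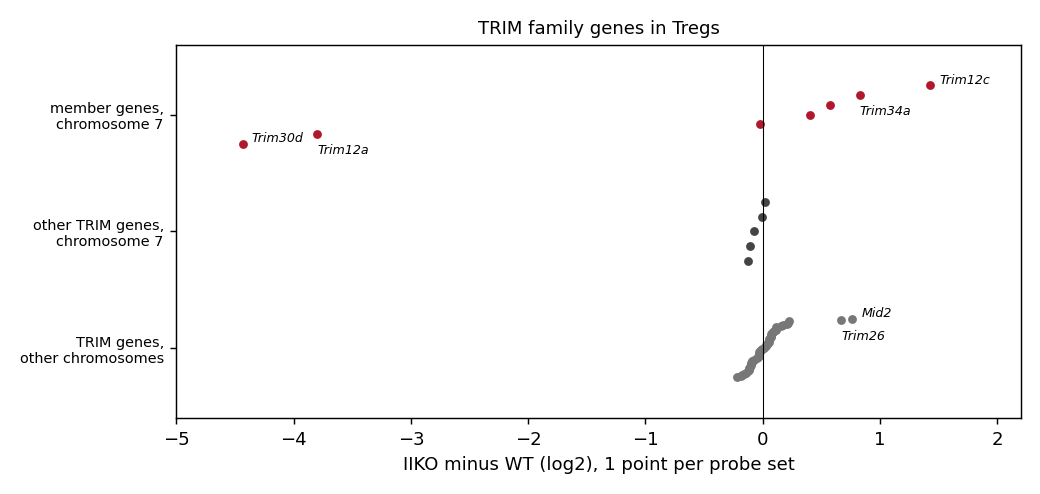
Difference of each TRIM family probe set (IIKO minus WT, log2), 1 point per probe set, with the members above, other TRIM genes of chromosome 7 in the middle and TRIM genes of other chromosomes below; the vertical spread within a row only orders the points. Trim30d and Trim12a stand at -4.43 and -3.80, while the 5 other chromosome 7 genes lie between -0.13 and 0.02.

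The genes around the members were examined in the same way. Along chromosome 7 there were 88 other measured genes between Trim21 and Trim30d, and 20 were taken on either side, 128 genes with 131 probe sets. Of these genes 101 encode olfactory receptors, which are silent in most tissues. Limma called 0 at an adjusted p under 0.05, and 32 passed an unadjusted 0.05 (24.4%, 31 lower and 1 higher), against 16.9% of all probe sets and 17.6% of those dimmer than the median level, where 1716 were lower and 191 higher. Differences were negative for 85.5% of them, with a median of -0.115, but only 12 of the 131 probe sets lay in the brighter part of the array, split at the median level. In the dimmer part of the whole array 78.5% of differences were negative, with a median of -0.071, and in the brighter part 45.8%, with a median of 0.013.

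With olfactory receptor genes left out and the 20 nearest other genes taken on each side, a choice made after the data were seen, 49 genes with 52 probe sets were covered. At an unadjusted limma p of 0.05, 15 of the 52 passed (28.8%, 12 lower and 3 higher), against 16.9% of all probe sets. The groups did not overlap for 13 (25.0%), against 10.3% of all probe sets. At an adjusted p under 0.05 limma called 1, against 0.273% of all probe sets. This was Gm4759, a transcribed pseudogene past Trim30d on chromosome 7, which is named after its values were seen. It read 7.56, 7.68, 7.68 and 7.28 in IIKO, against 9.44, 9.68, 9.62 and 10.05 in WT. The difference was -2.15 (SE 0.13, limma adjusted p = 6.728e-05). Its IIKO arrays were all below its WT arrays.

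**Figure D4:**
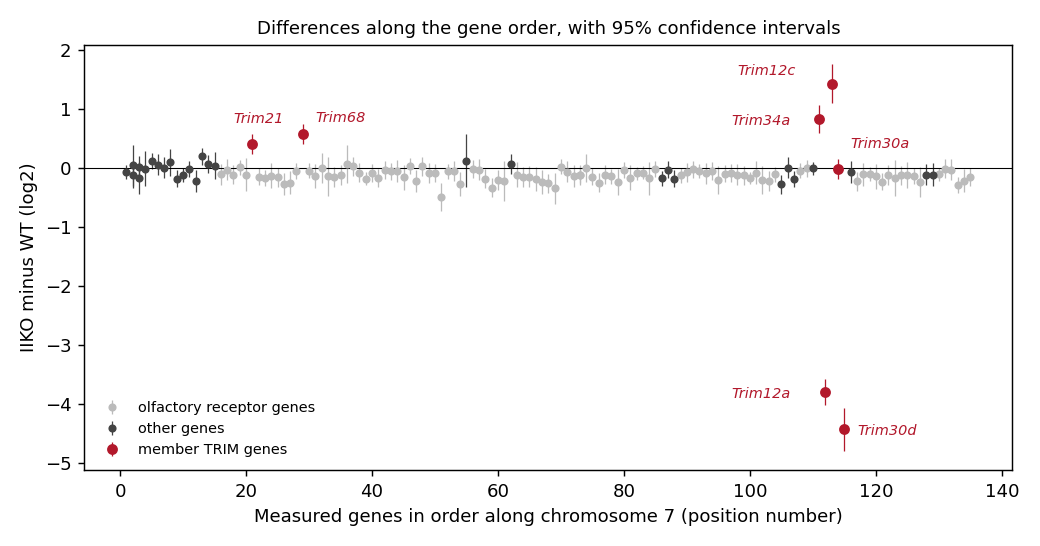
Difference (IIKO minus WT, log2) of members and their neighbours in gene order along chromosome 7, with 95% confidence intervals; red marks member genes, light grey olfactory receptor genes and dark grey other genes. Trim12a and Trim30d lie at -3.80 and -4.43 beside Trim12c at 1.43 and Trim30a at -0.02, with the neighbours between -0.50 and 0.20.

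Because interferon raises many TRIM transcripts, a list of interferon response genes was set beside the members. Of 51 listed, 44 were measured, and limma called 0 at an adjusted p under 0.05 and 8 at an unadjusted 0.05, all higher (18.2%, against 16.9% of all probe sets and 16.3% of the brighter part of the array). Differences ran from -0.30 to 0.61, 37 positive and 7 negative, with a median of 0.110. The brighter part of the array, which holds 37 of the 44, had a median of 0.013. Negative differences made up 15.9% of the list, against 45.8% of the brighter part and 62.1% of all probe sets. The mean of the list was 8.947, 9.190, 9.109 and 8.789 in the 4 IIKO arrays, against 8.898, 9.014, 8.896 and 8.776 in the 4 WT arrays. The groups overlapped, and in each of them replicate 2 was the highest and replicate 4 the lowest, as they also were for Trim30a.

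The gene of smallest p in that list was Ifitm3, which blocks virus entry and lies on chromosome 7, at 11.96 ± 0.31 in IIKO and 11.36 ± 0.16 in WT (SD, n = 4 each; difference 0.61, limma adjusted p = 0.1455). Samd9l, an antiviral factor, differed by 0.20 ± 0.05 (SE; limma adjusted p = 0.1695) and Xaf1, which favours cell death, by 0.30 ± 0.10 (SE; limma adjusted p = 0.221). For the 12 genes of interferon receptors and their regulators, with 14 probe sets, limma called 0 at either threshold, and the median difference was 0.003. The gamma interferon receptor chain Ifngr1 differed by 0.18 ± 0.08 (SE; limma adjusted p = 0.2992), the repressor Irf2 by 0.13 ± 0.07 (SE; limma adjusted p = 0.3659) and the feedback inhibitor Socs1 by -0.11 ± 0.06 (SE; limma adjusted p = 0.3791).

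The enzymes and signalling proteins that TRIM ligases work with or act on were measured for 32 of 36 listed genes, with 40 probe sets. Limma called 0 at an adjusted p under 0.05 and 2 at an unadjusted 0.05 (5.0%, against 16.9% of all probe sets), both higher. Of the 40 differences 29 were positive, with a median of 0.043. The negative share was 27.5%, against 62.1% of all probe sets. It was 45.8% in the brighter part of the array, which holds 38 of the 40. Nfkb2, an NF-κB subunit, averaged 8.88 ± 0.08 in IIKO and 8.66 ± 0.11 in WT (SD, n = 4 each; difference 0.22, limma adjusted p = 0.2024). Tab3, a target of Trim30a in mouse, differed by 0.20 ± 0.07 (SE; limma adjusted p = 0.234), and Mavs, the mitochondrial adaptor of RNA sensing, by -0.20 ± 0.10 (SE; limma adjusted p = 0.3283).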

How the data were processed

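The deposited values are log2 expression levels per probe set of an Affymetrix mouse array, for which the submitters' processing notes name affy and RMA without versions. RMA corrects background, brings the arrays to common quantiles and summarises the probes of a set. Probe-level data were not used here.

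Of 34760 probe sets, 21640 had 1 gene symbol, 1321 several and 11799 none. The reference table (GRCm38.p6) matched 21553 of the 1-symbol sets and changed 0 symbols. A linear model per probe set (IIKO minus WT, lmFit and eBayes of limma 3.58.1, R 4.3.3, 6 residual degrees of freedom) was fitted to the 1-symbol sets of all 8 arrays with no filter on dim sets, two-sided, with Benjamini-Hochberg adjustment over all of them and a threshold of 0.05. Confidence intervals are limma's. The number of arrays limits the precision, and no array repeated another (smallest SD of a difference between 2 arrays 0.1896).

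The members and lists were chosen with earlier results of these data known. Named are every member; the other chromosome 7 TRIM genes; of each other list the called genes and the 3 of smallest p; called neighbours; and the 5 genes most like Trim30d and Trim12c, without gene models, small RNAs and members. H2-Ab1, H2-Aa, H2-Eb1, Foxp3, Il2ra and Cd4 are always named. The fit was tested on simulated arrays with known changes. Promoter windows were aligned locally with Biopython 1.88. Alternatives were 10 other settings and each of the 8 arrays left out in turn.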

Additional observations from a re-analysis of the deposited data

Results flagged for a closer look

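In groups of 4 arrays, 1 array stood apart from the other 3 by more than Dixon's 95% critical value in 8 of 106 groups checked; chance gives about 1 in 20. Among the members this was Trim68, where WT replicate 1 read 7.71 and the others 7.78 to 7.79. Among other TRIM genes it was Trim3, where IIKO replicate 3 stood highest, at 7.5, with the others at 7.3 to 7.33.

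Of the Treg markers, Ikzf2 read 12.13 in IIKO replicate 2, with the others at 12.09 to 12.10, and Cd3e read 11.83 in IIKO replicate 1, with the others at 11.89. Of the B and plasma cell markers, Cd79b read 7.22 in IIKO replicate 1, with the others at 7.56 to 7.60, and Sdc1 read 6.19 in IIKO replicate 4, with the others at 6.11 to 6.12. H2-Ab1 read 7.87 in WT replicate 2, with the others at 8.30 to 8.39. Ubqln5, a neighbour on chromosome 7, read 6.61 in WT replicate 4, with the others at 6.38 to 6.41.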

How the results depend on the processing

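The differences of the members with groups that did not overlap kept their direction under every alternative run. Leaving out or weighting arrays could not turn their sign, because the groups did not overlap. Settings that changed only the error or the probe sets fitted left the differences as they were. Most of these runs thus could not have changed the direction. Trim30d ranged from -4.59 to -4.33, Trim12a from -3.88 to -3.73, Trim12c from 1.27 to 1.53, Trim34a from 0.72 to 0.90, Trim68 from 0.53 to 0.65 and Trim21 from 0.36 to 0.45. Small differences turned sign. Trim30a was 0.0265 with arrays centred on their medians and ran from -0.0654 to 0.0182 with an array left out. Trim6 was 0.0598 after a further quantile normalization and 0.0394 with centring, and ran from -0.0268 to 0.0157 with an array left out. Trim30e-ps1 was 0.0013 after quantile normalization, and Trim72 ran from -0.0072 to 0.0418 with an array left out. Trim26 passed the test under every alternative run, with limma adjusted p from 0.001685 to 0.02589.

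The count of all called probe sets was 59. It was 23 at an adjusted p under 0.01, 39 over all probe sets of the table, and 32 to 50 with an array left out (32 without IIKO replicate 2 or 3, 34 without WT replicate 1 or 3), where fewer arrays enter. Centring gave 80, of which 59 were higher and 21 lower, against 35 higher and 24 lower as deposited. The labels state no pairing of the replicate numbers. Deviations of same-numbered arrays from their group means correlated at 0.0322, 0.0062, -0.0675 and 0.214, which cannot exclude a pairing. With the replicate number as a block 27 probe sets were called. For the lists, a stricter threshold could not raise a count of 0. The run on the brighter part of the array covered only 12 of the 131 neighbour probe sets. List counts were the same under every alternative run, except that the neighbours without olfactory receptor genes gave 1 in place of 0. The cause of these shifts was not tested. Background signal, which was not examined, limits the size of the differences of Trim30d and Trim12a.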
